A study of Mus musculus with 6 samples.

Results

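Transcripts of 10 genes for the uptake of amino acids and iron were followed in regulatory T cells (Tregs) sorted from the bone marrow (BM) of mice with chronic myeloid leukemia (CML) and of naive mice. The genes were taken by feature name from the deposited expression tables. They are Slc7a5, Slc7a6 and Slc7a11 with their shared partner chain Slc3a2, the cationic amino acid transporter Slc7a1, the neutral amino acid transporters Slc1a4, Slc1a5, Slc38a1 and Slc38a2, and the transferrin receptor Tfrc. These 10 names are among 36881 feature names in each table. They matched 11 features, because Slc7a5 is listed 2 times, and the second Slc7a5 feature had no reads in any of the 6 libraries and was not used further.

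All 6 libraries came from 8-week-old Foxp3-DTR-GFP mice. The diphtheria toxin receptor and GFP are expressed from their Foxp3 locus, so that Tregs fluoresce. The 3 CML mice had received 30000 LSKs, an immature marrow population, transduced with a retrovirus carrying BCR-ABL1-GFP, and their Tregs were taken on day 15. The retrovirus carries GFP as well, and Tregs were gated within CD4+ cells. The CML mice had not been irradiated and therefore kept their own hematopoiesis, and the 3 naive mice carried the same alleles without leukemia.

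Cells import amino acids through carriers with overlapping substrates. Slc7a5, Slc7a6 and Slc7a11 are light chains that reach the plasma membrane only as heterodimers with the heavy chain encoded by Slc3a2, the protein known as CD98. Leucine that enters through Slc7a5 is sensed by mTORC1, and T cells raise several of these carriers when they are activated. Iron enters bound to transferrin through the receptor encoded by Tfrc, also called CD71, and the stability of Tfrc mRNA depends on hairpins in its 3′ untranslated region, the iron-responsive elements. When iron is scarce, iron regulatory proteins bind these hairpins and protect the mRNA.

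Tfrc (GRCm38, chr16:32608920-32632794, plus strand, 19 exons) was searched for such hairpins, which are the known control elements of this receptor, as an unpaired C, 5 bases, the loop CAGTGN and 5 bases that pair with the first 5. The 3′ untranslated region of Tfrc, 2458 bases in its last exon, held 4 matches. They lie on the plus strand at chr16:32631219-32631247, chr16:32631598-32631626, chr16:32631663-32631691 and chr16:32631710-32631738, in the order printed here with the loop in capitals.
Tfrc element 1: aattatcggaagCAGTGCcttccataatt
Tfrc element 2: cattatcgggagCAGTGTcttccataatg
Tfrc element 3: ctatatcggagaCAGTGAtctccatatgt
Tfrc element 4: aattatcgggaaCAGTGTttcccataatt
Of 3934 genes with a 3′ untranslated region of at least this length, 41 (1.04%) held a match in the first 2458 bases, and no gene other than Tfrc held more than 1. The 9 other genes had no match in their 3′ untranslated regions, and none of the 10 had one in its 5′ untranslated region. The same pattern lies once in the 5′ untranslated regions of the iron genes Fth1, Ftl1, Slc40a1 and Alas2. A match is a description of the sequence and says nothing on whether the element was bound in these cells.

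Depth limits what these libraries can show. Estimated reads numbered 829181 to 7613827 in the CML libraries and 5187987 to 9751911 in the naive libraries, and CML replicate 2 had the fewest. This library also held 50.7% of its summed values in its 10 highest features, against 28.5% to 31.3% in the others, and 47.1% of the 13923 features tested had their lowest value in it. The Treg markers Foxp3 (299 to 468 RPKM in CML, 297 to 367 RPKM in naive) and Il2ra (109 to 277 RPKM and 130 to 199.5 RPKM) were high in every library. At the unadjusted p under 0.05 with a fold of 1.5 (limma), 1 of 8 Treg and T cell markers was higher in CML Tregs (the TNF receptor family gene Tnfrsf18), as was 1 of 12 tested granulocyte and monocyte markers (the neutrophil elastase Elane, with 3.95, 7.56 and 29.1 RPKM against 2.66, 1.43 and 3.34 RPKM), and none of 3 B cell and 4 CD8 T and NK cell markers passed. Summed granulocyte and monocyte markers spanned 81.6 to 304 RPKM in CML and 93.7 to 127 RPKM in naive Tregs. Of the 12 tested, 11 had log2 fold changes above 0 (median 0.83), against 4977 of all 13923 features. Summed B cell and plasma cell markers spanned 358 to 502 RPKM and 486 to 631 RPKM, mostly from Ighm. The CD8 T and NK cell sums were 68.7 to 84.85 RPKM and 38.2 to 81.6 RPKM. These counts of markers describe differences between groups and not the absence of such transcripts.

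Of the 10 genes, 9 had reads in at least 1 library and 8 passed the filter of a mean of at least 1 RPKM (reads scaled by transcript length and library size). None of the 8 differed between CML and naive Tregs at an adjusted p under 0.05 with a fold of 1.5, a criterion met by 24 of the 13923 features tested (0.172%). None met the unadjusted p under 0.05 with this fold, which 2.61% of the features met toward higher and 5.94% toward lower values in CML Tregs. In 1 of the 8, Slc7a1, the groups did not overlap, with CML Tregs lower, as in 12.2% of all features tested. None had all CML libraries above all naive libraries, against 4.84% of all features. The median log2 fold change was 0.089 over the 8 genes, with 5 above 0, and -0.18 over all features, with 4977 of 13923 above 0. The median over the 8 genes was -0.12 with libraries scaled to the same 75th percentile, where that of all features was -0.36, and it was -0.034 without CML replicate 3. In bulk RNA, a lower share of cells with a transcript and less of it per cell cannot be told apart.

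**Figure D1:**
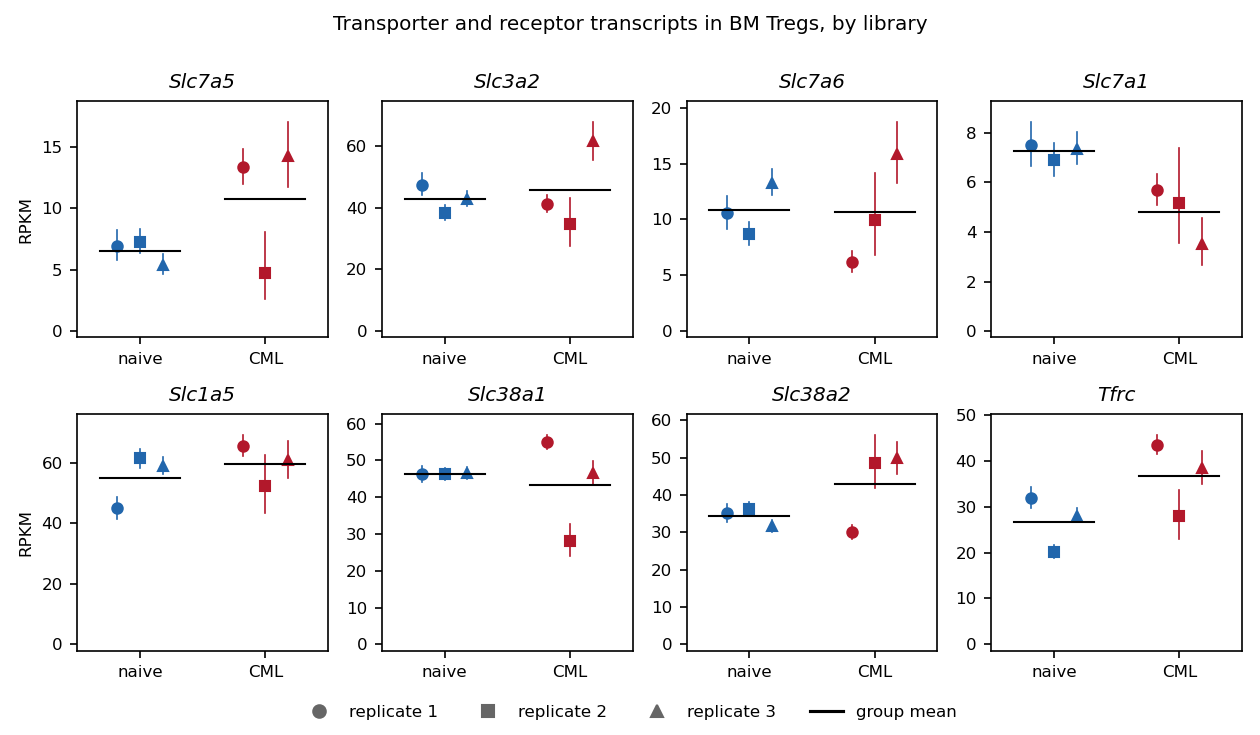
Values of the 8 genes tested in each library, in RPKM on linear axes from 0, for naive (blue) and CML (red) Tregs. Symbols give the replicate, vertical lines the 95% counting interval of the estimated reads and horizontal lines the group mean. Slc7a1 is the gene whose groups do not overlap (3.51 to 5.69 RPKM in CML, 6.89 to 7.53 RPKM in naive Tregs), and in Slc7a5 CML replicate 2 lies at 4.70 RPKM, below the other CML libraries at 13.3 and 14.2 RPKM.

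Slc7a5 (chr8:121881150-121907694, minus strand, 10 exons) encodes the light chain that imports leucine and other large neutral amino acids. It was measured at 13.3, 4.70 and 14.2 RPKM in CML replicates 1, 2 and 3 and at 6.89, 7.26 and 5.40 RPKM in naive replicates 1, 2 and 3. Thus, 2 CML libraries lay above all naive libraries, and CML replicate 2 lay below them. The means were 10.7 ± 5.25 RPKM in CML and 6.51 ± 0.986 RPKM in naive Tregs (SD, n = 3 each), a log2 fold change of 0.52 (SE 0.47, 95% interval -0.55 to 1.60, adjusted p = 0.718 with limma). The value of CML replicate 2 rests on about 14 reads, with a counting interval of 2.62 to 8.05 RPKM that overlaps the naive range and stays below the other CML values. Without CML replicate 2, the log2 fold change was 0.98 (adjusted p = 0.281), and with libraries weighted by their fit it was 0.84 (adjusted p = 0.452). Slc7a5 passed the unadjusted threshold of 0.05 with the fold of 1.5 in these fits and in none of the other 14 alternatives.

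Slc3a2 (chr19:8706882-8723369, minus strand, 10 exons), the heavy chain, was above the sum of its light chains in every library. Its values were 41.4, 34.8 and 61.6 RPKM in CML and 47.6, 38.3 and 42.9 RPKM in naive Tregs. The naive libraries all fell within the CML range. The log2 fold change was 0.06 (SE 0.25, 95% interval -0.51 to 0.63, adjusted p = 0.949), and it turned to -0.15 when libraries were scaled to the same 75th percentile.

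Slc7a6 (chr8:106168857-106198706, plus strand, 10 exons) is a light chain that exchanges cationic against neutral amino acids. It reached 6.20, 9.99 and 15.9 RPKM in CML and 10.6, 8.72 and 13.3 RPKM in naive Tregs. CML replicates 1 and 3 were the lowest and the highest of the 6 libraries, and the log2 fold change was -0.09 (SE 0.40, 95% interval -1.02 to 0.84, adjusted p = 0.951).

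Slc7a11 (chr3:49892526-50443614, minus strand, 12 exons), the light chain that imports cystine in exchange for glutamate, had no reads in any library. A count of 0 allows levels up to 0.0334 to 0.142 RPKM in 5 of the libraries and up to 0.392 RPKM in CML replicate 2, taking 3 reads as the floor and the longest annotated transcript as the length. These floors, as all intervals of reads here, cover counting error only, because reads copied by PCR cannot be traced to single molecules here. Slc7a11 is known as a target of the stress factor ATF4. Its promoter is shown because it held 2 matches to the amino acid response motif TGATGNAA, the most of the 7 members searched. In the RefSeq promoter (GRCm38.p6, chr3:50443614-50443713, minus strand, the 100 bases before the start site), the matches face each other and are given in capitals.
Slc7a11 promoter: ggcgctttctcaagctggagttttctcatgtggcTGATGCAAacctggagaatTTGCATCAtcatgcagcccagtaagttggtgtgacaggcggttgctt
RefSeq promoters were found for 7 of the 10 genes, namely Slc7a11, Slc7a1, Slc7a6, Slc1a4, Slc38a2, Tfrc and Slc3a2. Among these, TGATGNAA also occurred in Slc1a4, starting 4 bases before the start site, while 3.97% of 32851 promoters (250 bases before to 50 bases after the start site) held it on either strand. The antioxidant response motif TGACNNNGC was found in Slc7a1, Slc7a6 and Slc38a2, and in 12.4% of all promoters. The E-box CACGTG was found in none of the 7 and in 7.15% of all promoters. Among the 7 genes searched, those with the amino acid response motif were the 2 with few or no reads in these cells, Slc7a11 and Slc1a4. The promoters of Slc7a5, Slc1a5 and Slc38a1 were not searched, and a relation of the motif to expression was not tested.

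Because Slc3a2 serves several light chains, the balance between them was compared within libraries, where differences in scaling cancel. The ratio of Slc3a2 to Slc7a5 was 3.11, 7.40 and 4.33 in CML and 6.90, 5.28 and 7.95 in naive Tregs, with overlapping groups (exact permutation test, 2-sided, p = 0.3). The ratio of Slc3a2 to the sum of Slc7a5, Slc7a6 and Slc7a11 varied less, with 2.12, 2.37 and 2.05 in CML and 2.72, 2.40 and 2.29 in naive Tregs (means 2.18 ± 0.169 and 2.47 ± 0.225, SD, n = 3 each, exact permutation p = 0.2). Slc7a5 exceeded Slc7a6 in CML replicate 1 alone, with a ratio of 2.15, while the other 5 libraries lay between 0.406 and 0.896. Slc3a2 against Slc7a6 (p = 0.8, exact permutation test) and Slc38a2 against Slc38a1, described with the latter genes, complete the 5 ratios compared, and Benjamini-Hochberg adjusted values of these exact tests were 0.5 to 0.8. With 3 mice per group, the exact test cannot give a p below 0.1.

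**Figure D2:**
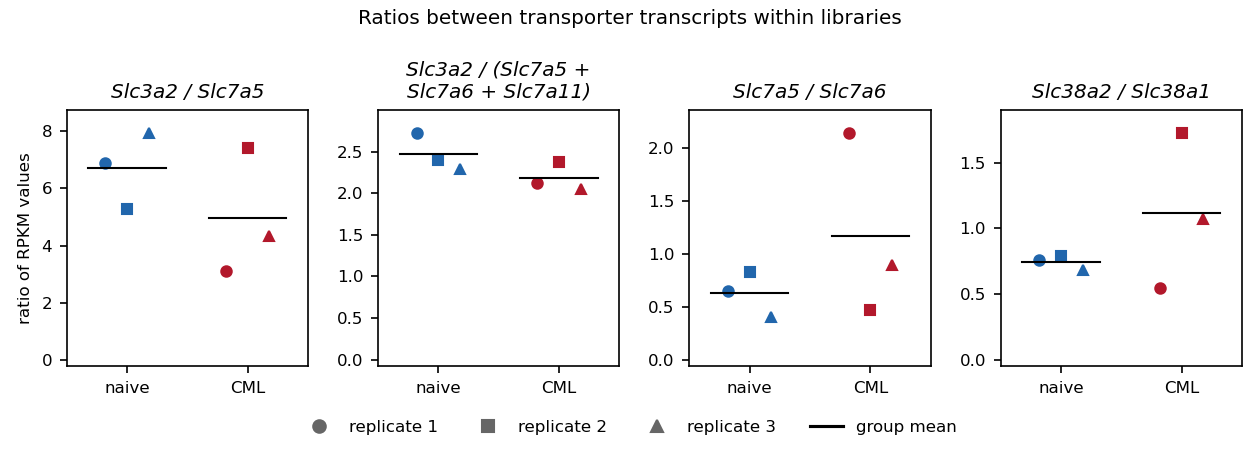
Ratios of RPKM values within each library, on linear axes from 0, for naive (blue) and CML (red) Tregs, with symbols for replicates and lines for group means. Slc3a2 against the sum of its light chains stays between 2.05 and 2.72, whereas Slc38a2 against Slc38a1 spans 0.547 to 1.73 in CML and 0.681 to 0.787 in naive Tregs.

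Slc7a1 (chr5:148327410-148399904, minus strand, 13 exons) encodes the transporter for arginine and lysine. It was measured at 5.69, 5.16 and 3.51 RPKM in CML and at 7.53, 6.89 and 7.35 RPKM in naive Tregs. Every CML library lay below every naive library, and the means were 4.79 ± 1.14 and 7.26 ± 0.328 RPKM (SD, n = 3 each). The exact permutation test gave p = 0.1, the smallest it allows, against 0.3 to 1 in the other 7 tested members, and the fit over all features gave a log2 fold change of -0.53 (SE 0.38, 95% interval -1.41 to 0.34, adjusted p = 0.674). The counting interval of CML replicate 2, 3.54 to 7.39 RPKM from about 31 reads, reached into the naive range. Slc7a1 stayed lower under all 16 alternatives, with log2 fold changes from -0.71 to -0.33, and passed the unadjusted threshold in none.

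Among the neutral amino acid exchangers, Slc1a5 (chr7:16781340-16798274, plus strand, 9 exons), known for the uptake of glutamine, was the most abundant of the 10 transcripts. Its values were 65.6, 52.3 and 60.7 RPKM in CML and 44.9, 61.4 and 59.0 RPKM in naive Tregs. The groups overlapped, with a log2 fold change of 0.12 (SE 0.20, 95% interval -0.34 to 0.58, adjusted p = 0.861). By contrast, Slc1a4 (chr11:20302180-20332713, minus strand, 8 exons), its relative for alanine, serine and cysteine, was at 0 in 5 libraries and at 0.064 RPKM in naive replicate 3, about 2 reads. The floor of 3 reads was 0.0784 to 0.334 RPKM in 5 libraries and 0.922 RPKM in CML replicate 2, and no fold was computed for Slc1a4 or Slc7a11.

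Slc38a1 and Slc38a2 encode sodium-coupled transporters of glutamine and other small neutral amino acids and lie 44478 bases apart on the minus strand of chromosome 15. Slc38a1 (chr15:96571418-96642913, 16 exons) was at 55.0, 28.1 and 46.5 RPKM in CML and at 46.3, 46.2 and 46.6 RPKM in naive Tregs. The naive libraries were nearly equal, with an SD of 0.229 RPKM, while the CML libraries had an SD of 13.7 RPKM, with the lowest value in CML replicate 2. The log2 fold change was -0.15 (SE 0.26, 95% interval -0.76 to 0.46, adjusted p = 0.865), and without CML replicate 2 it was 0.12.

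Slc38a2 (chr15:96687392-96699730, 16 exons), known to be induced when amino acids are lacking, was at 30.1, 48.6 and 49.9 RPKM in CML and at 35.1, 36.3 and 31.7 RPKM in naive Tregs. Here CML replicates 2 and 3 lay above the naive libraries, and CML replicate 1 lay below them. The log2 fold change was 0.28 (SE 0.25, 95% interval -0.29 to 0.84, adjusted p = 0.719). It was 0.51 without CML replicate 1, the fit in which Slc38a2 passed the unadjusted p (adjusted p = 0.333) without reaching the fold. The ratio of Slc38a2 to Slc38a1 was 0.547, 1.73 and 1.07 in CML and 0.759, 0.787 and 0.681 in naive Tregs, so that the naive libraries lay inside the CML range (exact permutation p = 0.4).

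Tfrc was measured at 43.4, 27.9 and 38.4 RPKM in CML and at 31.9, 20.1 and 28.1 RPKM in naive Tregs. CML replicates 1 and 3 were the 2 highest libraries, and CML replicate 2 lay just below naive replicate 3. The means were 36.6 ± 7.93 and 26.7 ± 5.98 RPKM (SD, n = 3 each), a log2 fold change of 0.44 (SE 0.27, 95% interval -0.18 to 1.06, adjusted p = 0.626). Without CML replicate 2, both CML libraries lay above all naive libraries and the log2 fold change was 0.62 (adjusted p = 0.370 with limma), and with library weights it was 0.60 (adjusted p = 0.439). Tfrc passed the unadjusted threshold with the fold in these fits and in none of the other 14 alternatives.

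Erythroid precursors carry much transferrin receptor, and erythroid transcripts were higher in the CML libraries. The summed level of the 15 listed erythroid markers found in the tables was 135, 47.2 and 262 RPKM in CML and 32.1, 41.0 and 9.998 RPKM in naive Tregs. Of 9 such markers tested, 4 were higher at the unadjusted p with a fold of 1.5 and none was lower, with a median log2 fold change of 2.02 (none passed the adjusted p). Those named by the rule were the globin genes Hbb-bs (19.8, 19.0 and 75.9 RPKM against 5.21, 6.16 and 1.39 RPKM) and Hbb-bt, whose reads may be shared with each other, and the carbonic anhydrase Car2 (8.22, 6.16 and 44.1 RPKM against 1.23, 1.31 and 0.917 RPKM). Alas2, the heme synthesis enzyme of erythroid cells, was at 5.51, 0 and 8.04 RPKM against 2.62, 1.38 and 1.74 RPKM. The part of these transcripts in the Tfrc values was not tested.

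**Figure D3:**
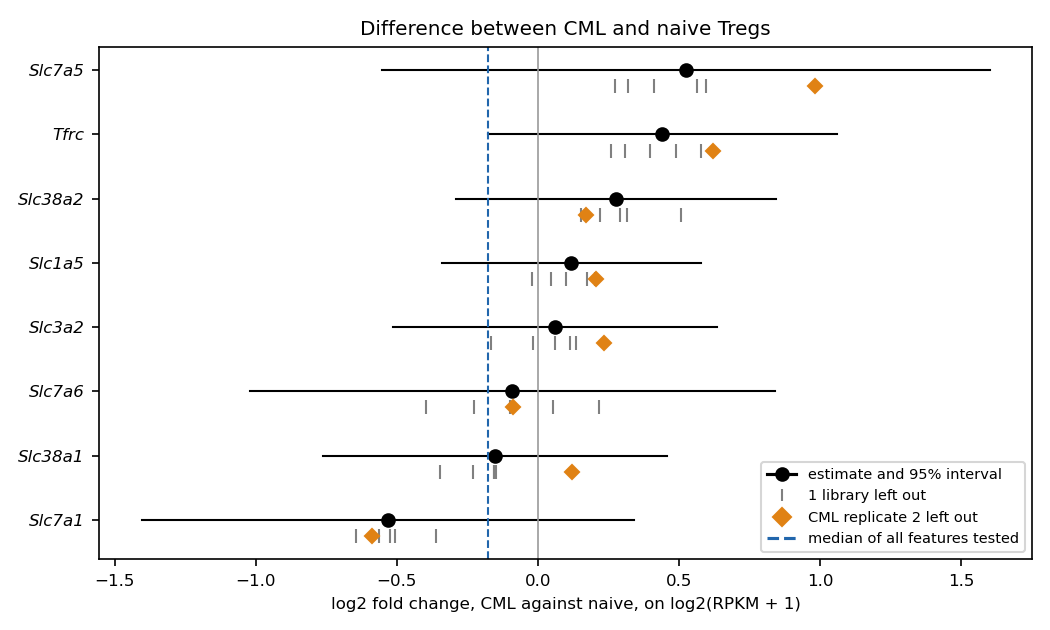
Log2 fold change of each tested gene in CML against naive Tregs, on log2(RPKM + 1), with its 95% interval (black), the values with 1 library left out (gray ticks) and those without CML replicate 2 (orange diamonds). All 8 intervals include 0 (solid line), Slc7a5 moves from 0.52 to 0.98 without CML replicate 2, and the dashed line marks the median of all features tested at -0.18.

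By mean level over the 6 libraries, the order was Slc1a5 (57.3 RPKM), Slc38a1 (44.8 RPKM), Slc3a2 (44.4 RPKM), Slc38a2 (38.6 RPKM), Tfrc (31.6 RPKM), Slc7a6 (10.8 RPKM), Slc7a5 (8.63 RPKM), Slc7a1 (6.02 RPKM), Slc1a4 (0.0107 RPKM) and Slc7a11 (0). The ranges over libraries were separate between Tfrc and Slc7a6 and between Slc7a1 and Slc1a4, while all other neighbors overlapped. Slc38a1 exceeded Slc3a2 in 3 of the 6 libraries and Slc7a5 exceeded Slc7a1 in 3 of the 6. Among the features tested, mean levels ranked from the 31.9th percentile for Slc7a1 to the 86.5th for Slc1a5. In every library, the glutamine carriers Slc1a5, Slc38a1 and Slc38a2 and the heavy chain Slc3a2 (at least 28.1 RPKM) were above the light chains and the arginine transporter (at most 15.9 RPKM).

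The spread within groups was compared on the log2 scale. In 6 of the 8 genes the SD was larger in CML than in naive Tregs, as it was in 76.7% of all features, and in 5 of the 8 it was larger without CML replicate 2, against 56.9% of all features. The lowest of the 6 values lay in CML replicate 2 for 3 of the 8 genes, namely Slc7a5, Slc3a2 and Slc38a1. The shares of the 8 genes were thus near or below those of all features.

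The features whose pattern over the 6 libraries was most like that of Slc7a5 were found by the root mean square difference of gene-centered log2 values among 7853 features with a mean of at least 10 RPKM. They were Hmgb1, a chromatin protein (difference 0.0833), Mcm6, a subunit of the replicative helicase (0.127), and Gt[ROSA]26Sor (0.135). Mcm6 was at 94.3, 46.9 and 122 RPKM in CML and at 56.7, 64.6 and 54.1 RPKM in naive Tregs, with CML replicate 2 below the naive libraries as for Slc7a5. For Hmgb1, reads may be shared with processed copies elsewhere in the genome. The members closest to Slc7a5 were Tfrc at rank 697 and Slc38a1 at rank 968, and its own partner chain Slc3a2 stood at rank 1060. The nearest to Tfrc were Adam19, a membrane metalloproteinase (0.109), Lpgat1, an acyltransferase (0.114), and Irgm2, an immunity GTPase (0.124), of 7852 features, with Slc3a2 at rank 751. These distances are descriptions over 6 libraries that differ in depth.

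Genes that surround the transporters were counted from lists of related function. For the counts above 0 given here and for the lists below, 4977 of all 13923 features tested had log2 fold changes above 0. In the list of cell cycle markers, 3 of 12 were higher at the unadjusted p with a fold of 1.5, and 11 of 12 had log2 fold changes above 0 (median 0.69). They were the mitotic kinase Cdk1, the helicase subunit Mcm5 and the topoisomerase Top2a, of which Top2a was at 52.1, 34.7 and 65.8 RPKM in CML and at 32.7, 30.9 and 27.1 RPKM in naive Tregs. Top2a exceeded the naive libraries in all 3 CML libraries, whereas Slc7a5 did so in CML replicates 1 and 3 and lay below them in CML replicate 2. The rule that named Top2a required groups without overlap, so its level in CML replicate 2 says nothing on the rest of the list. In 5 of the 12 markers the groups were separate, with CML Tregs higher. By contrast, Mcm3 (22.3 RPKM against 23.1 to 25.5 RPKM) and Birc5 (0 against 10.8 to 19.3 RPKM) lay below the naive libraries in CML replicate 2, as Slc7a5 did. No other of the 12 markers had its lowest value in CML replicate 2, where 47.1% of all features tested had theirs. The part of cell cycle in the Slc7a5 values was not tested. No gene of any list passed the adjusted p.

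Of 45 other amino acid transporters listed, 27 had reads and 12 were tested, with a median log2 fold change of -0.15. One was higher at the unadjusted p with the fold, Slc38a6, a relative of Slc38a1, with 4.74, 7.10 and 4.33 RPKM in CML and 2.83, 1.44 and 1.81 RPKM in naive Tregs, a log2 fold change of 1.08 (SE 0.45, adjusted p = 0.505). None was lower. The cystine and glutathione list, to which Slc7a11 belongs by function, had 0 of 14 tested genes past either threshold. Its Gclc, the catalytic subunit of the first enzyme of glutathione synthesis, was at 19.3, 4.77 and 16.3 RPKM in CML and at 23.2, 31.3 and 23.3 RPKM in naive Tregs, without overlap (log2 fold change -1.08, adjusted p = 0.527).

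In the amino acid response list, the targets and relatives of ATF4, 1 of 17 tested genes was higher at the unadjusted p with the fold, and 12 of 17 had log2 fold changes above 0 (median 0.35). The median fell to 0.045 without CML replicate 3, and was 0.25 to 0.40 with any other library left out and 0.15 at the same 75th percentile. The gene past the unadjusted threshold was Asns, asparagine synthetase, with 2.88, 7.87 and 10.4 RPKM in CML and 0.114, 0.068 and 1.095 RPKM in naive Tregs. Estimated reads were 44, 13 and 48 in CML and 1, 1 and 22 in naive Tregs, and the log2 fold change was 2.43 (SE 0.60, adjusted p = 0.248). Atf4 itself was at 150, 147 and 163 RPKM in CML and at 176, 150 and 133 RPKM in naive Tregs.

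Of 37 tested genes for the sensing of leucine and arginine by mTORC1, 1 was higher and 2 were lower at the unadjusted p with the fold (median -0.18). Sesn1, a leucine sensor of the sestrin family that restrains mTORC1, was at 30.0, 32.4 and 34.3 RPKM in CML and at 73.1, 79.3 and 68.6 RPKM in naive Tregs. Its log2 fold change was -1.17 (SE 0.17, adjusted p = 0.0707), and its adjusted p was 0.0333, 0.0483 and 0.0371 when libraries were scaled to the same 75th percentile, quantile normalized or weighted. In the other 13 of the 16 alternatives the adjusted p (limma) stayed above 0.05, up to 0.403. Rptor, the scaffold subunit of mTORC1, was at 19.2, 13.5 and 12.7 RPKM against 30.2, 29.0 and 29.1 RPKM (log2 fold change -0.94, adjusted p = 0.283). Lamtor4, part of the complex that holds mTORC1 at the lysosome, was at 80.6, 92.5 and 91.9 RPKM against 48.2, 60.4 and 44.4 RPKM (log2 fold change 0.79, adjusted p = 0.238). These 3 genes were named because their groups did not overlap, and in no other tested gene of the list were the groups separate (1 of 37 higher and 2 of 37 lower, against 4.84% and 12.2% of all features).

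Of 23 tested genes for the use of glutamine, arginine and branched-chain amino acids, 1 was lower, spermine synthase Sms, with 6.44, 6.57 and 6.75 RPKM in CML and 17.3, 12.8 and 11.0 RPKM in naive Tregs, a log2 fold change of -0.93 (adjusted p = 0.425). Of 20 cytosolic aminoacyl-tRNA synthetases, none passed either threshold and the median log2 fold change was 0.013.

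Among 16 tested factors known to act on the transporter genes, 2 were higher and none was lower at the unadjusted p with the fold. Mxd1, an antagonist of MYC, was at 140, 63.5 and 78.0 RPKM in CML and at 24.5, 40.2 and 39.0 RPKM in naive Tregs, a log2 fold change of 1.37 (adjusted p = 0.245). Hif1a, the hypoxia factor, was at 333, 259 and 400 RPKM against 173, 225 and 240 RPKM (log2 fold change 0.63, adjusted p = 0.392). Myc, which is known to raise Slc7a5, Slc3a2, Slc1a5 and Tfrc in activated T cells, was at 21.2, 17.7 and 21.2 RPKM in CML and at 34.0, 27.1 and 21.0 RPKM in naive Tregs, a log2 fold change of -0.41 (adjusted p = 0.639).

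**Figure D4:**
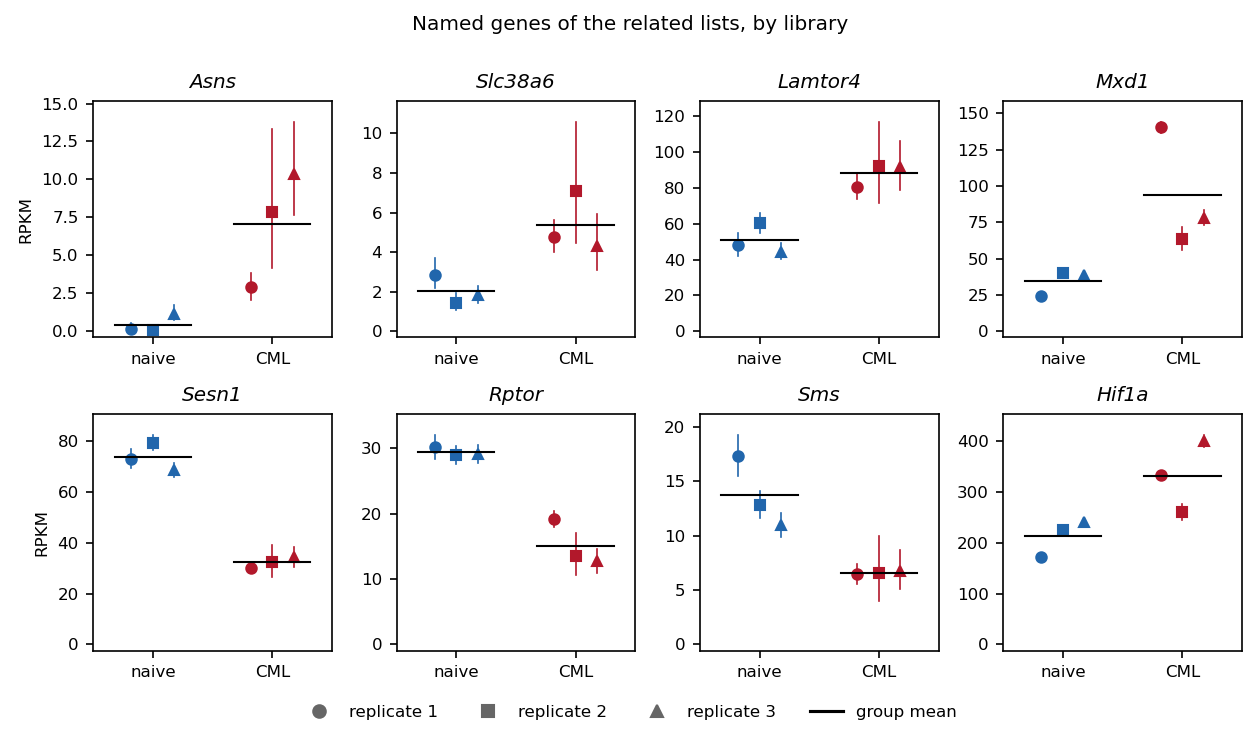
Values of the 8 genes named from the related lists outside the marker and cell cycle lists, in RPKM on linear axes from 0, for naive (blue) and CML (red) Tregs, with symbols for replicates, vertical lines for 95% counting intervals and horizontal lines for group means. Asns is at 2.88 to 10.4 RPKM in CML against at most 1.095 RPKM in naive Tregs, and Sesn1 at 30.0 to 34.3 RPKM against 68.6 to 79.3 RPKM.

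In the iron list, 0 of 23 tested genes passed either threshold, 12 had log2 fold changes above 0 and the median was 0.019, or -0.24 to -0.032 with 1 library left out (lowest without CML replicate 3). The iron regulatory proteins that bind the hairpins of Tfrc are encoded by Aco1 (7.23, 10.8 and 7.37 RPKM in CML, 5.63, 9.78 and 7.87 RPKM in naive Tregs) and Ireb2 (27.4, 20.9 and 14.4 RPKM against 20.5, 24.8 and 22.1 RPKM), and both overlapped between groups. Ferritin transcripts, whose hairpins lie in the 5′ untranslated region, were the most abundant of the iron genes named here, with 260, 204 and 299 RPKM against 302, 219 and 231 RPKM for Fth1 (log2 fold change 0.02, adjusted p = 0.9803). The endosomal iron transporter Slc11a2 was at 4.29, 4.39 and 12.5 RPKM in CML and at 7.94, 13.2 and 7.32 RPKM in naive Tregs, again with overlap. The iron exporter Slc40a1 stayed under the filter, with 0.077, 0 and 0 RPKM against 0.563, 1.80 and 0.419 RPKM, from about 2 reads in CML and 10 to 53 reads in naive Tregs.

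**Figure D5:**
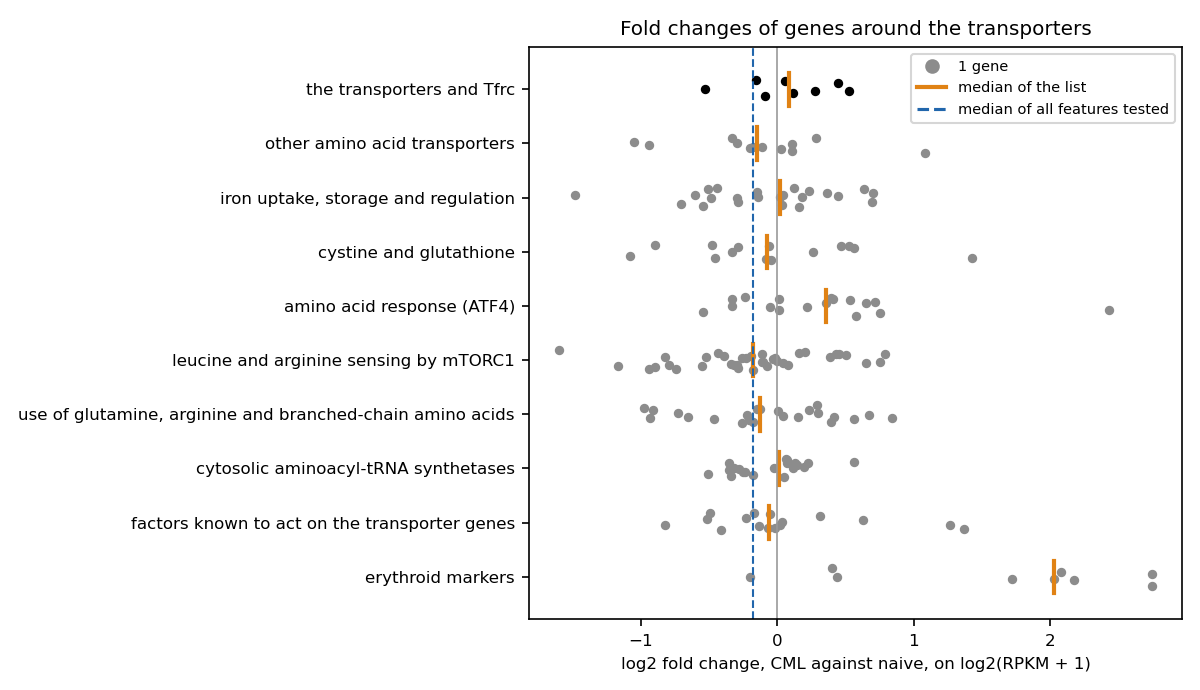
Log2 fold changes of single genes in CML against naive Tregs (gray points, black for the 8 tested transporter and receptor genes), by list, with the median of each list (orange bar) and of all features tested (dashed line, -0.18). The 8 genes lie between -0.53 and 0.52, the median of the amino acid response list is 0.35 (0.045 without CML replicate 3) and that of the erythroid markers is 2.02.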

How the data were processed

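RNA of FACS-purified BM Tregs from 3 CML and 3 naive mice (labels) was amplified with the SMART-Seq v4 kit and sequenced in single reads of 76 bases. The authors used SeqMan NGen for assembly and ArrayStar for expression values, both version 15, with GRCm38 (mm10) named in the submitters' notes. The deposited values are taken as RPKM, a unit the sources do not name. Value times length of 1297 small RNA genes fell on whole steps (within 0.05) for 33.5% to 65.4% of products. Without the products that defined the step, the share was 30.5% to 59.0%, against 10% by chance. The steps gave the estimated reads. A value of 0.001 marks no reads and was set to 0. As these are not counts, no count test was run.

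Using limma 3.58.1 (R 4.3.3), log2(RPKM + 1) was fitted for 13923 features with a mean of at least 1 RPKM, with a trended prior and Benjamini-Hochberg adjustment. Fold changes on this scale understate those of low genes. The fit was run on simulated data with changes larger than those of the members, which does not show its power for changes of their size. Single values were compared by exact 2-sided permutation over 20 assignments. Python 3.11.15 with pandas 2.3.3 and scipy 1.17.1 was used otherwise. Gene positions, lengths and hairpins came from GENCODE M21 (GRCm38, longest coding transcript).

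The members, the 14 lists and the alternatives were chosen with earlier results of these data known. All members are named, and from each list up to 3 genes with the largest change at an unadjusted p under 0.05 (limma) and no overlap. Genes that act on the members directly were given whatever their values. Some genes that fall under this rule are not reported here. Alternatives covered pseudocount, filter, scaling, moderation, library weights, replicate block and each library left out. The replicate numbers come from the labels and belong to different mice.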

Additional observations from a re-analysis of the deposited data

How the results depend on the processing

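No member passed the adjusted p under any of the 16 alternatives, whereas the number of features called over the whole table moved with the processing. It was 24 in the fit reported, 0 with a pseudocount of 0.001 RPKM (323 higher and 650 lower at the unadjusted p with the fold), 1 without a filter, 46 with libraries scaled to the same 75th percentile, 53 after quantile normalization, 11 without a trend, 45 with library weights and 0 to 17 with 1 library left out (6 without CML replicate 3 and 0 without any 1 of the naive replicates, where the limma fit left 249 to 261 features higher and 493 to 600 lower at the unadjusted p with the fold). With the replicate number as a block it was 1, and the deviations of libraries with the same number correlated at -0.0048, -0.0016 and -0.019. These values near 0 show no pairing by number, but they cannot exclude a batch shared by libraries of the same number. The split of higher to lower features at the unadjusted p with the fold was 363 to 827, and it became 211 to 1584 at the same 75th percentile, 624 to 590 after quantile normalization and 677 to 781 without CML replicate 2. The median log2 fold change of all features moved from -0.18 to -0.36, -0.0068 and -0.032 in these fits.

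Slc7a5, Tfrc, Slc38a2 and Slc7a1 kept their sign in all 16 alternatives, with log2 fold changes of 0.27 to 0.98, 0.24 to 0.62, 0.072 to 0.51 and -0.71 to -0.33. The other tested members, with estimates near 0, changed sign. Slc3a2 was at -0.15 at the same 75th percentile, -0.17 without CML replicate 3 and -0.017 without naive replicate 2 (leaving out 1 library gave -0.17 to 0.23). Slc7a6 was at 0.045 after quantile normalization, 0.22 without CML replicate 1 and 0.054 without naive replicate 3 (-0.40 to 0.22). Slc1a5 was at -0.089 at the same 75th percentile and -0.021 without naive replicate 1 (-0.021 to 0.21), and Slc38a1 was at 0.058 with library weights and 0.12 without CML replicate 2 (-0.35 to 0.12). The cause of these changes was not tested. List medians near 0 also moved with 1 library left out, from -0.29 to 0.045 for other amino acid transporters, -0.33 to 0.014 for mTORC1 sensing, -0.16 to 0.071 for the use of amino acids and -0.22 to 0.16 for the aminoacyl-tRNA synthetases. Of the 3 features nearest to Tfrc, 1 was shared when the largest difference replaced the root mean square. At 829181 estimated reads, CML replicate 2 limits Slc7a5, Slc7a1 and Slc7a6 most.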
